A study of Danio rerio with 12 samples.

Results

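Collagen chain genes were described in 12 messenger RNA libraries from adult wild type zebrafish kidney, the organ in which adult fish make blood. All genes were taken whose symbol starts with col, a type number, the letter a and a chain number, in capitals or not. The rule found 57 of the 32047 genes listed, of which 28978 had a symbol. No measured value was used to choose them. They were sorted by the type number into fibrillar collagens (15 genes), basement membrane collagen IV (6), beaded filament and related collagens VI and XXVIII (9), network collagens VIII and X (5), fibril-associated collagens or FACITs (12), multiplexins XV and XVIII (3), transmembrane collagens XVII and XXIII (4) and the anchoring fibril collagen VII and its relatives (3).

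Collagens are secreted proteins in which chains wind into a triple helix, and each gene encodes a chain rather than a whole molecule. Fibrillar collagens such as type I give tissues their tensile strength, type IV forms the sheet-like network of basement membranes under endothelium and epithelium, and FACITs and beaded collagens sit on or between fibrils. In blood-forming organs this matrix holds the stroma and vessels together and binds receptors on blood cells and stroma.

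A niche set compared ZKS cells with pericytes (titles: pdgfrb) and with sinusoids (titles: Ac-LDL-hi, a sort on acetylated lipoprotein taken up). The other set, DP, held double positive cells, gata2a+ runx1+, in 3 states. They were uncultured, kept on ZKS cells (co-cultured), or kept on ZKS cells with IWR-1-endo, an inhibitor of Wnt signalling, and Thpo, thrombopoietin (here called treated). Each of the 6 groups had 2 libraries, and all 12 were labelled as sorted from the kidney. ZKS is also the name of a stromal line grown from zebrafish kidney, and the labels do not say whether the profiled ZKS cells had been cultured. Whether replicates were separate animals is not stated, and a p-value here weighs a difference only against the spread of these libraries, which may be technical. Values are CPM, in which each library's reads are scaled to the same total. Steps in the values gave 6984492 to 16242092 reads per niche library. For DP libraries no depth could be read, and they listed 7329 to 9712 genes above 0. The libraries are bulk samples, so fewer cells of a type and less RNA per cell cannot be told apart.

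Marker genes were read beside the labels. The 7 endothelial genes summed to 14179.7 and 13758.7 CPM in sinusoids and to at most 137.01 CPM in the other niche libraries. PDGFRB, the receptor that titles the pericytes, stood at 125.46 and 123.85 CPM there, at 30.99 and 31.58 CPM in ZKS cells and at 1.2 and 3.14 CPM in sinusoids. The 10 mural cell genes summed to 2747.66 and 2039.37 CPM in pericytes, to 156.79 and 194.21 CPM in ZKS cells and to 581.67 and 978.56 CPM in sinusoids. Of the 10, 7 were called higher and none lower in pericytes than in sinusoids (14.4% and 10.9% of all genes). Testing needed 1 CPM in at least 2 niche libraries, a filter that RGS5 passed only with pericytes, so this count is no test. However, rgs5b overlapped between sinusoids (275.42 and 568.03 CPM) and pericytes (264.47 and 426.23 CPM). So did TAGLN (ENSDARG00000033466), at 202.88 and 372.98 CPM in sinusoids and 156.86 and 316.84 CPM in pericytes. ZKS cells had 67017.5 and 58198.1 CPM over the 16 stromal genes other than collagens, and pericytes had 4681.91 and 4947.96 CPM. MMP9, a matrix protease, and EFEMP2 (ENSDARG00000094324), a matrix protein, carried most of the ZKS sum, at 32561.2 and 27586.1 CPM and at 27028.5 and 23544.9 CPM. Of the 15 stromal genes tested, 6 were called higher and 7 lower in ZKS cells than in pericytes (15.2% and 22.0% of all genes), with a median log2 change of -1.04. STC2 (ENSDARG00000056680) passed the filter through ZKS cells alone, and PRRX1 (ENSDARG00000042027) and THBS4 (ENSDARG00000102777) only with pericytes, so these counts are no test. PDGFRA, a receptor in the stromal list, stood at 439.32 and 422.22 CPM in pericytes, above PDGFRB there. It stood at 20.62 and 9.31 CPM in ZKS cells and at 13.83 and 25.12 CPM in sinusoids. The DP cells are labelled by gata2a and runx1. GATA2 stood at 45.3 and 177.5 CPM in uncultured, 33.1 and 127.9 CPM in co-cultured and 319.8 and 9.1 CPM in treated DP cells. RUNX1 was 6.3 and 6.1 CPM in uncultured DP cells, 0.1 and 0 CPM in co-cultured cells and listed at 0 in both treated libraries. MYB, LMO2 and MEIS1, regulators of blood stem and progenitor cells, were each at 117.1 CPM or more in all 6 DP libraries. The other 2 genes of that list were not steady. itga2b was at 36.9 and 63.5 CPM in uncultured DP cells and listed at 0 in all co-cultured and treated libraries. gata2b ranged from 20.7 CPM in co-cultured replicate 2 to 431.9 CPM in treated replicate 1. Single marker genes here and below were picked with their values known.

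Collagen transcripts made up a far larger share of pericyte libraries than of any other group. The 57 genes together summed to 19630.5 and 17950.1 CPM in pericytes, to 1300.62 and 1205.66 CPM in ZKS cells and to 259.42 and 127.58 CPM in sinusoids. The groups did not overlap, and the mean sum in pericytes was 14.99-fold that of ZKS cells and 97.1-fold that of sinusoids. These folds are of CPM as deposited. With TMM scaling, explained below, the sums were 21371 and 20134 in pericytes, 1081.1 and 1068.7 in ZKS cells and 233.44 and 157.58 in sinusoids. The gap between pericytes and ZKS cells was then wider. In the DP libraries the sum was 16.4 and 14.3 CPM in uncultured, 44.7 and 0.3 CPM in co-cultured and 6.7 and 27 CPM in treated cells. The DP groups overlapped.

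The mix of classes also differed between the niche groups. Fibrillar genes held 85.6% and 92.0% of the collagen CPM in pericytes, 52.8% and 53.5% in ZKS cells and 27.6% and 18.8% in sinusoids. Basement membrane genes held 46.5% and 49.0% in sinusoids, 14.8% and 15.5% in ZKS cells and 1.39% and 0.973% in pericytes. Network genes held 20.3% and 17.8% in ZKS cells and at most 1.72% in any other niche library. Thus the largest class by CPM was fibrillar in pericytes and ZKS cells and basement membrane in sinusoids. These shares are of reads, so long transcripts could weigh more within a library, but a gene's length is the same in every library.

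**Figure D1:**
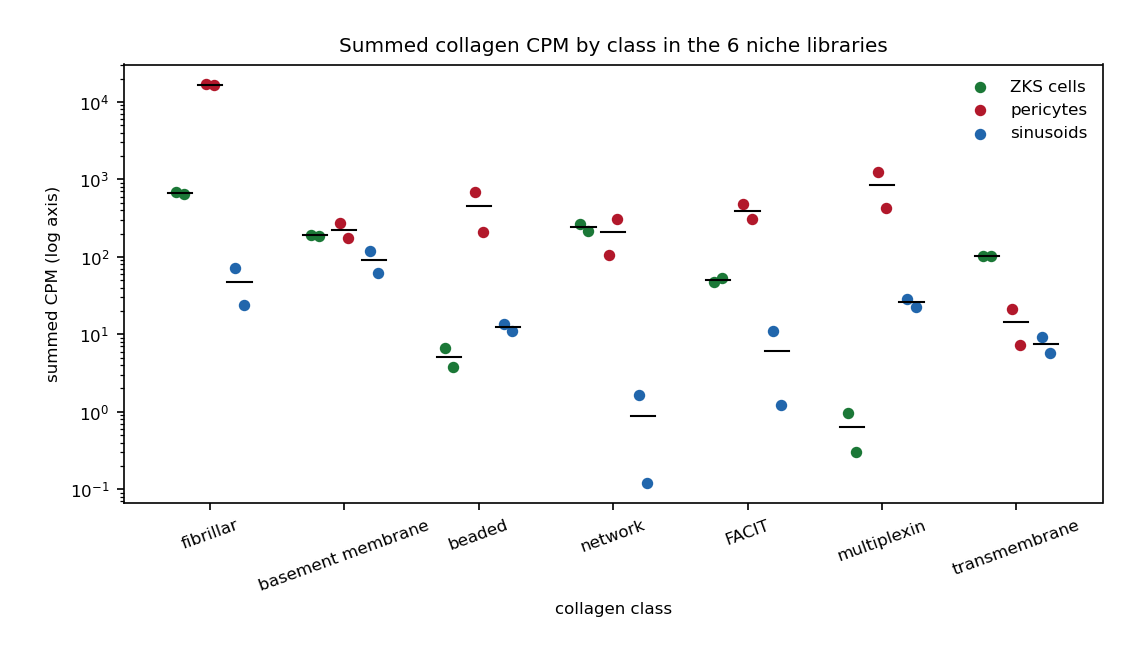
Summed CPM (log axis) of 7 collagen classes in the 6 niche libraries; each point is a library and each bar the mean of 2 libraries. Both pericyte libraries lie above all others for fibrillar, beaded, FACIT and multiplexin genes, and both ZKS libraries are highest for transmembrane genes.

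Genes were tested with limma on log2(CPM + 1) after TMM scaling, which corrects for library composition, and were called at a Benjamini-Hochberg adjusted p under 0.05 over all genes tested. A log2 change below is on this scale, which understates the change of low genes, and is followed by its SE. Of the 57 collagen genes 43 reached 1 CPM in at least 2 niche libraries and were tested. Of these 43, 11 passed that filter through 1 group alone and so had to differ, so the counts below describe the tested genes and support nothing by themselves. These were COL8A1, COL10A1 (ENSDARG00000101535), col16a1, col28a2b, col5a2b, col5a3b, COL6A3, col19a1 (ENSDARG00000076163) and col7a1l (ENSDARG00000069692), which passed through pericytes, col14a1b through ZKS cells and col17a1a through sinusoids, and their values are given with no test. Outside pericytes, col6a1, col15a1b, col18a1b and col7a1 reached 1 CPM in sinusoid replicate 1 alone. COL11A2 did so in sinusoid replicate 2 alone. Outside sinusoids, COL4A2 did so in pericyte replicate 1 alone. These called genes also passed only with the group where they are highest, so their calls against that group are no test. Between ZKS cells and pericytes 3 collagen genes were called higher in ZKS cells and 27 lower. Over all 15916 genes tested 37.2% were called, 15.2% higher and 22.0% lower. Of all calls 40.8% were higher in ZKS cells, and without TMM scaling 51.2% were. Between ZKS cells and sinusoids 13 collagen genes were called higher in ZKS cells and 5 lower, against 31.6% of all genes called, 13.7% higher and 17.9% lower. Between pericytes and sinusoids 30 collagen genes were called higher in pericytes and 2 lower, against 25.4% of all genes, 14.4% higher and 10.9% lower. The 3 comparisons share their libraries in pairs and are not independent.

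On the reads recovered from the niche values, edgeR's quasi-likelihood test called 1 collagen gene higher and 19 lower in ZKS cells than in pericytes (25.5% of all genes called, 8.52% higher and 17.0% lower). It called 8 higher and 6 lower in ZKS cells than in sinusoids (25.6% of all genes, 9.83% higher and 15.7% lower), and 22 higher and 0 lower in pericytes than in sinusoids (12.5% of all genes, 7.84% higher and 4.67% lower). DESeq2 called 2 higher and 24 lower (37.5% of all genes, 12.6% and 25.0%), 11 higher and 8 lower (36.1%, 14.0% and 22.2%), and 24 higher and 0 lower (24.0%, 14.2% and 9.85%) in the same order.

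The median log2 change of the tested collagen genes was -2.57 for ZKS cells against pericytes, where that of all genes was -0.15. With the 13 genes at 0 in a group set to their bounds, the collagen median was -3.03. The corresponding medians were -0.17 for ZKS cells against sinusoids (all genes -0.12) and 2.99 for pericytes against sinusoids (all genes -0.06, collagens 3.56 with 5 genes at their bounds). Without the TMM factors the median of all genes moved from -0.15 to 0.098 for ZKS cells against pericytes, from -0.12 to 0.033 for ZKS cells against sinusoids, and from -0.64 to -0.51 for treated against uncultured DP cells. Both pericyte libraries exceeded the 4 other niche libraries for 28 of the 43 tested genes (65.1%), a pattern that 17.4% of all tested genes had. Both ZKS libraries were highest for 4 (27.7% of all tested genes), namely col4a5, COL8A2, col23a1b and col14a1b. Both sinusoid libraries were highest for 2 (17.2% of all tested genes), namely COL4A2 and col17a1a.

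**Figure D2:**
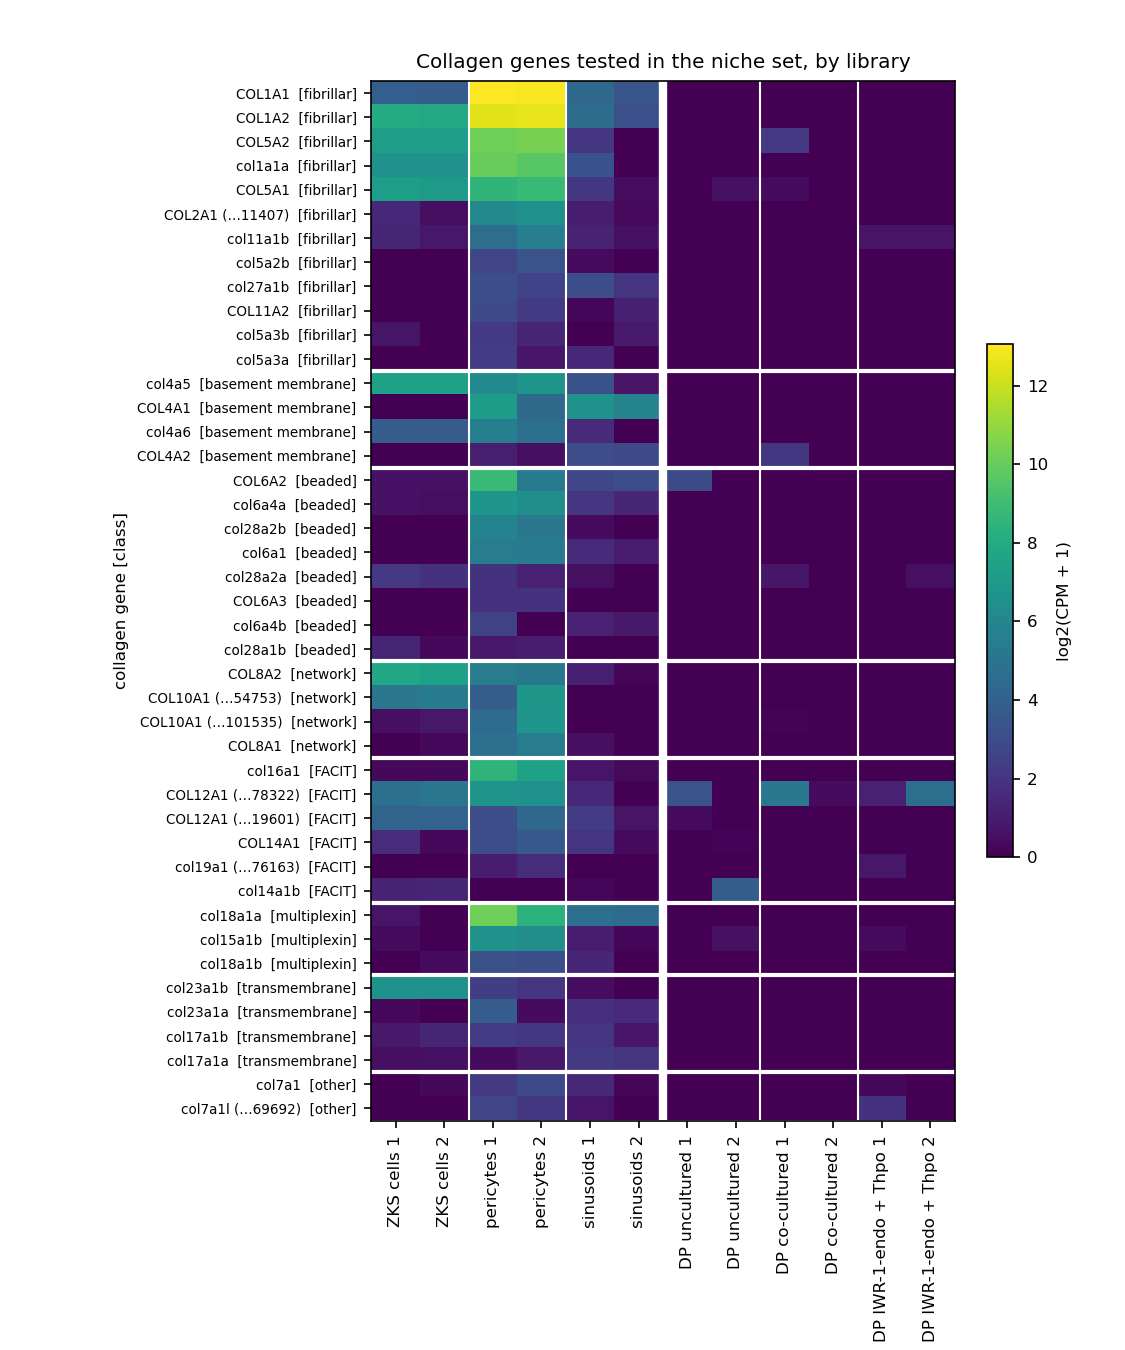
log2(CPM + 1) of the 43 collagen genes tested in the niche set (rows, by class) in all 12 libraries (columns). The brightest cells are COL1A1 and COL1A2 in the 2 pericyte libraries, while nearly all collagen genes are dark in the 6 DP libraries.

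Type I collagen, the main collagen of fibrous stroma, made up 77.2% and 81.2% of the collagen CPM in pericytes over its 3 genes. COL1A1, which encodes an alpha 1 chain of type I, stood at 8486.03 and 7777.52 CPM in pericytes, at 14.04 and 13.66 CPM in ZKS cells and at 19.97 and 9.73 CPM in sinusoids. Pericytes were far above the other groups, and the ZKS values lay within the sinusoid range. COL1A1 was lower in ZKS cells than in pericytes by a log2 change of -9.44 ± 0.28 (limma adjusted p = 3.0e-05) and higher in pericytes than in sinusoids by 9.16 ± 0.28 (limma adjusted p = 7.3e-05), while ZKS cells and sinusoids differed by -0.29 ± 0.28 (limma adjusted p = 0.474). COL1A2, the alpha 2 chain of type I, stood at 5650.6 and 5989.56 CPM in pericytes, at 261.42 and 237.13 CPM in ZKS cells and at 23.11 and 8.13 CPM in sinusoids. Its 3 groups were fully separated in the order pericytes, ZKS cells, sinusoids, with log2 changes of -4.90 ± 0.35 for ZKS cells against pericytes (limma adjusted p = 0.00027) and 3.79 ± 0.35 for ZKS cells against sinusoids (limma adjusted p = 0.00057).

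A second alpha 1 gene, col1a1a, behaved differently from COL1A1 in ZKS cells. It stood at 104.96 and 97.36 CPM in ZKS cells, at 1024.5 and 815.23 CPM in pericytes and at 8.82 and 0 CPM in sinusoids. Pericytes were again highest, but ZKS cells lay well above sinusoids. The log2 change of col1a1a was -3.53 ± 0.90 for ZKS cells against pericytes (limma adjusted p = 0.023) and 4.88 ± 0.90 against sinusoids (limma adjusted p = 0.0077). The first call was lost with edgeR and DESeq2 on the recovered reads and without any 1 of the 4 libraries, among other settings (adjusted p of 0.0006 to 0.18 over the alternatives). The second was lost with edgeR and DESeq2, with an adjusted p up to 0.101.

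Within a library the length of a transcript cancels when the ratio of a pair of genes is compared between libraries. The ratio of col1a1a to COL1A1 was 0.121 and 0.105 in pericytes, 7.48 and 7.13 in ZKS cells and 0.442 in sinusoid replicate 1, and col1a1a was at 0 in sinusoid replicate 2. The ratio of COL1A1 to COL1A2 was 1.50 and 1.30 in pericytes, 0.0537 and 0.0576 in ZKS cells and 0.864 and 1.20 in sinusoids. So ZKS cells had col1a1a reads in excess of COL1A1 reads, whereas both pericyte libraries had the reverse, and replicates lay close together. With 2 libraries against 2 an exact permutation test cannot give a p below 0.333, so these ratios carry no test. Where copies are near-identical, the authors' counting may have divided their reads, so the values of the alpha 1 genes and of other copies are uncertain.

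**Figure D3:**
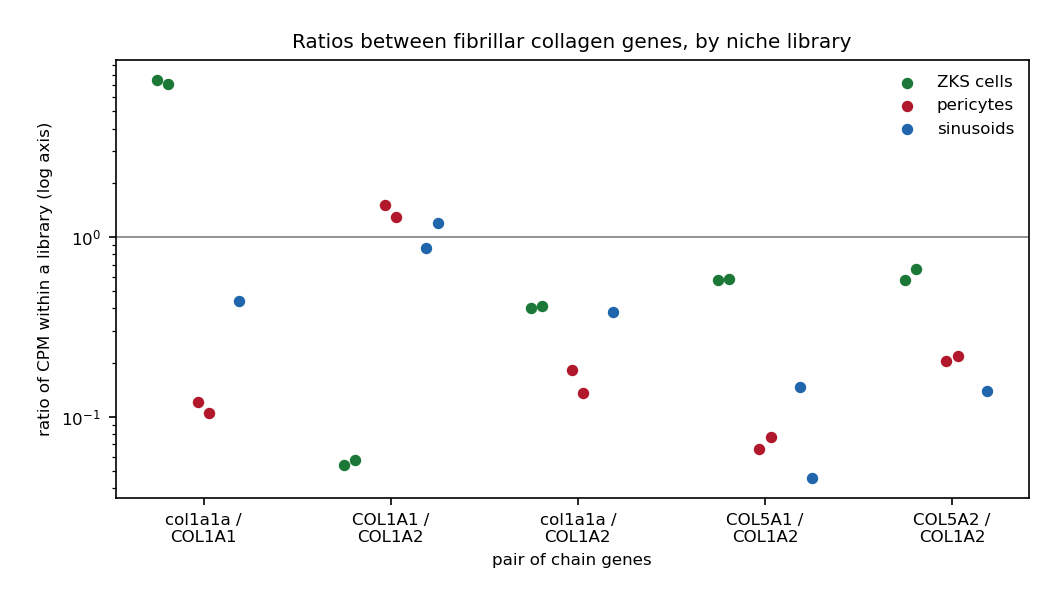
Ratio of the CPM of 5 pairs of fibrillar collagen genes within each niche library (log axis); each point is a library, and the grey line marks equal CPM. The col1a1a to COL1A1 ratio is 7.13 to 7.48 in ZKS cells and 0.105 to 0.121 in pericytes; sinusoid replicate 2 has no point where the first gene was at 0.

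Type V collagen, which mixes into type I fibrils and limits their width, was shared by pericytes and ZKS cells. COL5A1 stood at 371.81 and 462.6 CPM in pericytes, at 150.85 and 137.54 CPM in ZKS cells and at 3.37 and 0.37 CPM in sinusoids. COL5A2, the alpha 2 chain of type V, stood at 1150.39 and 1306.61 CPM in pericytes, at 150.85 and 157.28 CPM in ZKS cells and at 3.22 and 0 CPM in sinusoids. For both genes the 3 groups were separated in the order pericytes, ZKS cells, sinusoids. Against sinusoids, ZKS cells were higher by a log2 change of 5.68 ± 0.49 for COL5A1 (limma adjusted p = 0.00042) and 6.08 ± 0.59 for COL5A2 (limma adjusted p = 0.00069). Against pericytes, ZKS cells were lower by -1.88 ± 0.49 for COL5A1 (limma adjusted p = 0.024) and -3.35 ± 0.59 for COL5A2 (limma adjusted p = 0.0063). The COL5A1 call against pericytes was lost without any 1 of the 4 libraries, with CPM as deposited, with all 12 libraries and with edgeR (adjusted p of 0.0027 to 0.127 over the alternatives). The COL5A2 call was lost with edgeR (adjusted p = 0.055) and DESeq2 (adjusted p = 0.136).

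The balance of types V and I differed with the cells. The ratio of COL5A1 to COL1A2 was 0.0658 and 0.0772 in pericytes, 0.577 and 0.58 in ZKS cells and 0.146 and 0.0455 in sinusoids. The ratio of COL5A2 to COL1A2 was 0.577 and 0.663 in ZKS cells and 0.204 and 0.218 in pericytes. ZKS cells therefore had more type V reads per type I alpha 2 read than pericytes in every library, for both chains. The type V pair held 23.2% and 24.5% of the collagen CPM in ZKS cells and 7.75% and 9.86% in pericytes.

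A cartilage type fibrillar gene was also found in pericytes. COL2A1 (ENSDARG00000011407), the chain of the type II fibrils of cartilage, stood at 68.51 and 91.77 CPM in pericytes, at 1.73 and 0.4 CPM in ZKS cells and at 1.05 and 0.25 CPM in sinusoids. Pericytes were separate from both other groups, which overlapped. The log2 change was -5.61 ± 0.56 for ZKS cells against pericytes (limma adjusted p = 0.00082) and 5.80 ± 0.56 for pericytes against sinusoids (limma adjusted p = 0.0011). The 10 bone and cartilage genes other than collagens summed to 17.7 and 47.82 CPM in pericytes and to 102.8 and 86.93 CPM in ZKS cells. Of the 7 tested, 4 were called higher and 1 lower in ZKS cells than in pericytes (15.2% and 22.0% of all genes). The 7 include SP7, RUNX2 and runx2b, which passed the filter through ZKS cells alone, so the count of genes higher there is no test. The gene called lower was a copy of the cartilage factor SOX9 (ENSDARG00000043923), at 5.57 and 10.31 CPM in pericytes and at 0.86 and 0.4 CPM in ZKS cells. The other SOX9 copy was at 0 in pericytes and at 1.73 and 0.2 CPM in ZKS cells. The bone gene SP7 was at 0 in both pericyte libraries and at 11.66 and 7.29 CPM in ZKS cells.

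The other 9 fibrillar genes were low, with a highest niche group mean of 35.9 CPM for col11a1b, an alpha 1 chain of type XI. Of the 12 tested fibrillar genes 10 were called lower in ZKS cells than in pericytes and none higher (22.0% and 15.2% of all genes). Against sinusoids 9 were called higher in pericytes and none lower (14.4% and 10.9% of all genes). Between ZKS cells and sinusoids 4 were higher and 1, col27a1b, lower in ZKS cells (13.7% and 17.9% of all genes). Both counts for pericytes include col5a2b, which passed the filter through pericytes alone, and COL11A2, which passed only with pericytes, so neither is a test. The 3 untested fibrillar genes were COL11A1, col24a1 and the other copy of COL2A1, none above 2.28 CPM in a niche library.

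Basement membrane collagen divided between ZKS cells and sinusoids by gene pair, while pericytes had reads of both pairs. Type IV chains are encoded by paired neighbouring genes, and the RefSeq gene order of a later assembly places COL4A1 beside COL4A2, col4a6 beside col4a5 and COL4A4 beside col4a3. COL4A1, a chain of the IV network found in most basement membranes, stood at 101.25 and 55.66 CPM in sinusoids, at 148.15 and 21.48 CPM in pericytes and at 0 in both ZKS libraries. COL4A2, its partner chain, stood at 7.4 and 6.28 CPM in sinusoids, at 1.14 and 0.43 CPM in pericytes and at 0 in both ZKS libraries. Sinusoids and pericytes overlapped for COL4A1, sinusoids were highest for COL4A2, and neither gene had a read in ZKS cells.

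With 3 reads as the floor of a library, group means were set against the floor of ZKS cells. On these means COL4A1 was at least 242-fold higher in sinusoids and at least 262-fold higher in pericytes than in ZKS cells. COL4A2 was at least 21.1-fold higher in sinusoids. The pericyte mean of COL4A1 joins replicates at 148.15 and 21.48 CPM, so single libraries can lie below these folds. The log2 change of COL4A1 was -6.32 ± 0.82 for ZKS cells against sinusoids (limma adjusted p = 0.002) and -6.00 ± 0.82 against pericytes (limma adjusted p = 0.0024). Pericytes and sinusoids differed in COL4A1 by -0.33 ± 0.82 (limma adjusted p = 0.805), and the sign turned without pericyte replicate 2. COL4A2 passed the filter only with sinusoids, so its calls against sinusoids, given next, are no test. COL4A2 was lower in ZKS cells than in sinusoids by -3.03 ± 0.44 (limma adjusted p = 0.0031), a call lost without either ZKS library (adjusted p up to 0.056). COL4A2 was lower in pericytes than in sinusoids by -2.17 ± 0.44 (limma adjusted p = 0.014), a call lost with edgeR, DESeq2, the 4 libraries alone and without pericyte replicate 2 (adjusted p of 0.0082 to 0.148 over the alternatives).

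The pair col4a5 and col4a6 had reads in both ZKS libraries. The gene col4a5, a chain of the more specialised IV networks, stood at 179.03 and 173.47 CPM in ZKS cells, at 73.65 and 106.09 CPM in pericytes and at 8.53 and 0.62 CPM in sinusoids. Its neighbour col4a6 stood at 13.07 and 12.65 CPM in ZKS cells, at 47.53 and 25.77 CPM in pericytes and at 1.94 and 0 CPM in sinusoids. ZKS cells were highest for col4a5 and pericytes for col4a6, with sinusoids lowest for both.

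Against sinusoids, ZKS cells were higher by 5.28 ± 0.70 on the log2 scale for col4a5 (limma adjusted p = 0.0022) and 2.86 ± 0.62 for col4a6 (limma adjusted p = 0.014), the latter lost with edgeR and without either ZKS library (adjusted p up to 0.0971). Against pericytes neither passed, with 0.63 ± 0.70 for col4a5 (limma adjusted p = 0.511) and -1.72 ± 0.62 for col4a6 (limma adjusted p = 0.069). The col4a6 difference was called with the 4 libraries alone (limma adjusted p = 0.0173) and with a pseudocount of 5 (limma adjusted p = 0.0254), over a range of 0.0173 to 0.258 in the alternatives. COL4A1 with COL4A2 made up 41.9% and 48.5% of the collagen CPM in sinusoids and none in ZKS cells, where col4a5 with col4a6 made up 14.8% and 15.4%. The remaining pair was untested, and col4a3 reached 17.04 CPM in pericyte replicate 2 against 0.86 CPM in replicate 1.

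Among beaded filament and related collagens, both pericyte libraries were highest for 5 of the 9 genes (17.4% of all tested genes). COL6A2, a chain of collagen VI, which forms beaded filaments around cells, stood at 456.87 and 40.09 CPM in pericytes, at 0.54 and 0.51 CPM in ZKS cells and at 5.98 and 7.51 CPM in sinusoids. The alpha 1 chain gene col6a1 stood at 44.39 and 40.38 CPM in pericytes, at 0 in both ZKS libraries and at 2.02 and 0.99 CPM in sinusoids. For both genes pericytes lay above sinusoids and sinusoids above ZKS cells, although the COL6A2 values of the pericyte replicates differed 11.4-fold. ZKS cells were lower than pericytes by -6.71 ± 1.03 for COL6A2 (limma adjusted p = 0.0038) and by -5.58 ± 0.49 for col6a1 (limma adjusted p = 0.00052) on the log2 scale. However, col6a1 passed the filter only with pericytes, so its value is no test.

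Another VI chain gene, col6a4a, stood at 115.32 and 87.48 CPM in pericytes, at 0.54 and 0.4 CPM in ZKS cells and at 3.22 and 1.6 CPM in sinusoids. The collagen XXVIII gene col28a2b, of a family related to VI, stood at 57.23 and 34.93 CPM in pericytes, at 0.3 and 0 CPM in sinusoids and at 0 in ZKS cells. The gene col6a4a was separate in pericytes, and col28a2b passed the filter through pericytes alone. Of the 8 tested beaded genes 5 were called lower in ZKS cells than in pericytes and none higher (22.0% and 15.2% of all genes). Against sinusoids 5 were called higher in pericytes and none lower (14.4% and 10.9% of all genes). Both counts include col28a2b and COL6A3, which passed through pericytes alone, and col6a1, which passed only with pericytes, so none of these is a test. The COL6A2 call between pericytes and sinusoids (4.22 ± 1.03, limma adjusted p = 0.026) was lost without either sinusoid library and with no filter (adjusted p up to 0.0905).

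Within the network class the genes divided between ZKS cells and pericytes. COL8A2, a chain of the hexagonal network collagen VIII of vessel walls and the cornea, stood at 229.24 and 173.98 CPM in ZKS cells, at 42.96 and 36.08 CPM in pericytes and at 1.2 and 0.12 CPM in sinusoids. The 3 groups did not overlap. ZKS cells were higher than pericytes by 1.95 ± 0.40 (limma adjusted p = 0.011) and than sinusoids by 6.80 ± 0.40 (limma adjusted p = 0.00012) on the log2 scale. The first call was lost with edgeR (adjusted p = 0.0509) and without either ZKS library or pericyte replicate 2 (adjusted p of 0.003 to 0.128 over the alternatives).

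The partner chain gene COL8A1 was highest in pericytes and low in ZKS cells and sinusoids. It stood at 26.4 and 44.67 CPM in pericytes, at 0 and 0.2 CPM in ZKS cells and at 0.45 and 0 CPM in sinusoids. ZKS cells held 2 reads of it in all, and COL8A1 passed the filter through pericytes alone, so its values carry no test. The remaining VIII gene, col8a1a, was at 0 in all 6 niche libraries.

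Type X collagen is known from hypertrophic cartilage, and 2 genes carry its symbol. COL10A1 (ENSDARG00000054753) stood at 13.27 and 118.98 CPM in pericytes, at 34.66 and 39.77 CPM in ZKS cells and at 0 in both sinusoid libraries. COL10A1 (ENSDARG00000101535) stood at 22.55 and 108.96 CPM in pericytes, at 0.43 and 0.81 CPM in ZKS cells and at 0 in both sinusoid libraries. Pericyte replicate 2 was high for both, and the first copy overlapped between pericytes and ZKS cells. The first copy differed between ZKS cells and pericytes by -0.47 ± 0.94 (limma adjusted p = 0.721), and by -2.03 without pericyte replicate 1, where it was called (limma adjusted p = 0.0285). The second copy was highest in pericytes, but it passed the filter through pericytes alone, so this order is no test. Against sinusoids the first copy was higher in ZKS cells by 5.04 ± 0.94 (limma adjusted p = 0.008), a call lost without ZKS replicate 2 (adjusted p = 0.0548).

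FACITs, which coat fibrils and link them to other matrix, were led by col16a1 and COL12A1. The type XVI gene col16a1 stood at 354.11 and 173.1 CPM in pericytes, at 0.22 and 0.2 CPM in ZKS cells and at 0.67 and 0.25 CPM in sinusoids. Pericytes stood far above both other groups, but col16a1 passed the filter through pericytes alone, so this order is no test. COL12A1 (ENSDARG00000078322), a chain of the type XII collagen of dense connective tissue, stood at 106.9 and 95.07 CPM in pericytes, at 26.13 and 33.4 CPM in ZKS cells and at 1.79 and 0 CPM in sinusoids. Its groups did not overlap, and ZKS cells were higher than sinusoids by 4.03 ± 0.53 (limma adjusted p = 0.0021), a call lost with all 12 libraries (adjusted p = 0.218). ZKS cells were lower than pericytes by -2.09 ± 0.53 (limma adjusted p = 0.022), a call lost without any 1 of the 4 libraries and with edgeR and DESeq2, among others (adjusted p of 0.0034 to 0.551 over the alternatives).

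The other COL12A1 copy (ENSDARG00000019601) had a flatter distribution. It stood at 7.42 and 19.76 CPM in pericytes, at 16.74 and 17.1 CPM in ZKS cells and at 3.74 and 0.62 CPM in sinusoids. Pericytes and ZKS cells overlapped and differed by 0.10 ± 0.67 on the log2 scale (limma adjusted p = 0.922). Sinusoids were lowest, and ZKS cells were called higher by 2.48 ± 0.67 (limma adjusted p = 0.031), although the call was lost with edgeR, with no filter and without sinusoid replicate 2 or either ZKS library (adjusted p of 0.011 to 0.167). Pericytes were called higher than sinusoids by 2.38 ± 0.67 (limma adjusted p = 0.042), lost in several settings, the replicate block among them (adjusted p of 0.009 to 0.165). Of the other 9 FACIT genes 3 were tested, and none of the 9 had a niche group mean above 9.58 CPM. Of these, col14a1b, of type XIV, was at 1.4 and 1.52 CPM in ZKS cells and at 0 in both pericyte libraries.

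Multiplexins, basement membrane collagens that carry sugar chains, were called lower in ZKS cells than in pericytes for all 3 genes, against 22.0% of all genes tested. Of these, col15a1b and col18a1b passed the filter only with pericytes, so their calls are no test. The type XVIII gene col18a1a, whose human protein contains the fragment endostatin, stood at 1142.25 and 331.16 CPM in pericytes, at 26.25 and 22.72 CPM in sinusoids and at 0.65 and 0 CPM in ZKS cells. The 3 groups did not overlap, with pericytes highest and ZKS cells lowest. The log2 change of col18a1a was -9.10 ± 0.59 for ZKS cells against pericytes (limma adjusted p = 0.00019), -4.43 ± 0.59 for ZKS cells against sinusoids (limma adjusted p = 0.0022) and 4.67 ± 0.59 for pericytes against sinusoids (limma adjusted p = 0.0027). The type XV gene col15a1b stood at 100.05 and 84.9 CPM in pericytes, at 0.32 and 0 CPM in ZKS cells and at 1.05 and 0.12 CPM in sinusoids. It differed between ZKS cells and pericytes by -6.51 ± 0.53 (limma adjusted p = 0.0004), which is no test. The third, col18a1b, had a mean of 8.14 CPM in pericytes.

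Among transmembrane collagens, which stay anchored in the cell membrane, col23a1b stood apart in ZKS cells. This type XXIII gene stood at 100.42 and 100.3 CPM in ZKS cells, at 4.28 and 2.86 CPM in pericytes and at 0.37 and 0 CPM in sinusoids. The groups did not overlap. ZKS cells were higher than pericytes by 4.16 ± 0.47 (limma adjusted p = 0.0013) and than sinusoids by 6.24 ± 0.47 (limma adjusted p = 0.00028), and both calls held in all 14 alternatives. The copy col23a1a did not share that distribution, with 0.22 and 0 CPM in ZKS cells and 13.13 and 0.29 CPM in pericytes. The type XVII gene col17a1a, whose human protein anchors skin cells to the basement membrane, stood at 3.59 and 2.96 CPM in sinusoids and at most 0.86 CPM elsewhere in the niche set. Of the VII genes, col7a1 and 1 of 2 col7a1l copies were tested, with group means of at most 5.08 CPM, and col7a1 was called lower in ZKS cells than in pericytes. That call is no test, since col7a1 passed the filter only with pericytes, and it was lost with edgeR and without either ZKS library, among others.

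**Figure D4:**
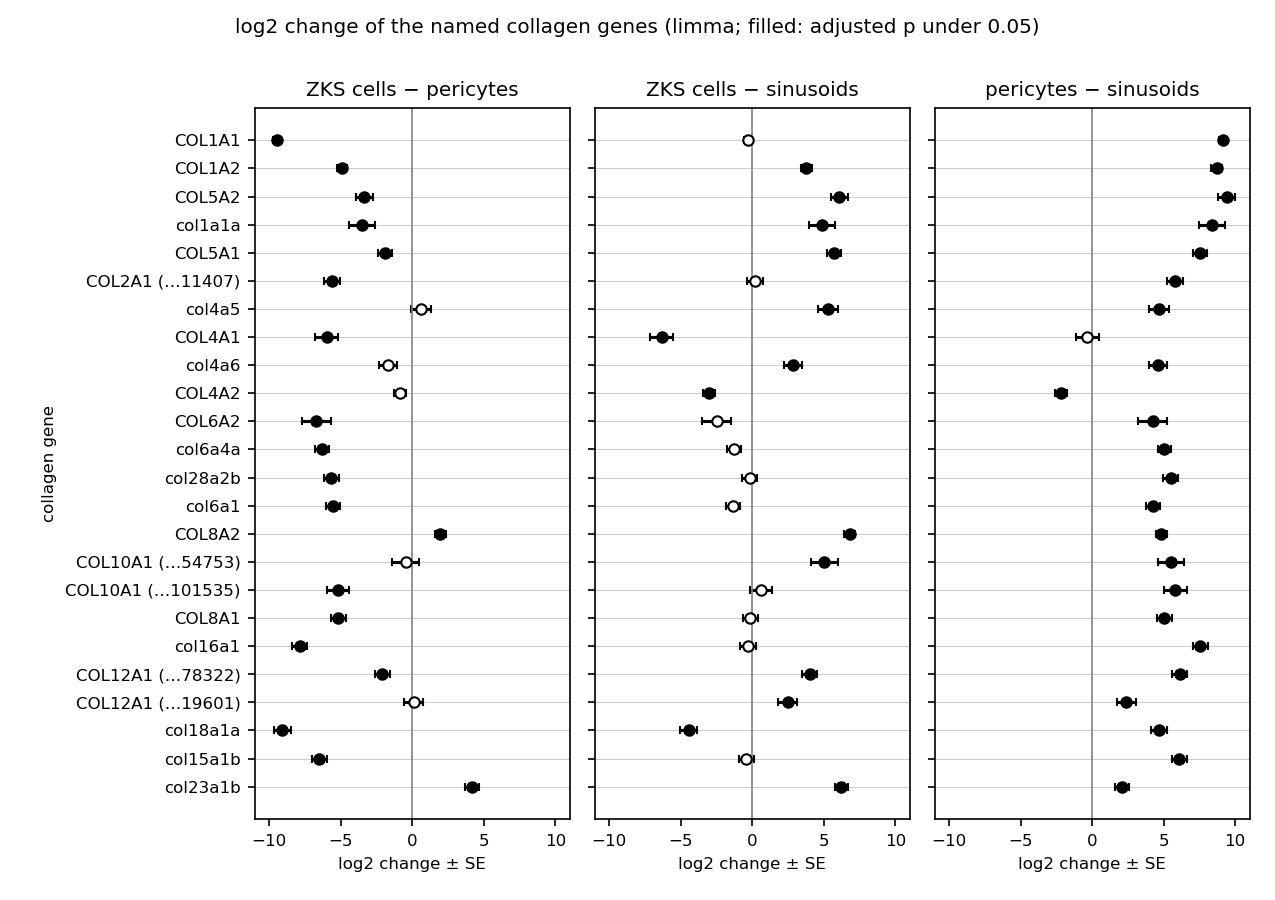
log2 change with SE (limma) of the 24 named collagen genes in the 3 niche comparisons; filled points have an adjusted p under 0.05, which for COL8A1, COL10A1 (ENSDARG00000101535), col16a1 and col28a2b is no test since they passed the filter through pericytes alone. Filled points are no test either for col6a1 and col15a1b in comparisons with pericytes and for COL4A2 in comparisons with sinusoids. In the left panel 17 of 24 are called lower in ZKS cells than in pericytes and 2, COL8A2 and col23a1b, higher (22.0% and 15.2% of all genes).

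Replicates of a group did not vary alike. Among named genes with at least 3 reads in both libraries, the higher replicate exceeded the lower by a median of 1.09-fold in ZKS cells (16 genes), 1.47-fold in pericytes (24 genes) and 2.05-fold in sinusoids (13 genes). In pericytes 8 of the 24 genes differed more than 2-fold. COL6A2, COL4A1 and col18a1a were higher in replicate 1, and both COL10A1 copies in replicate 2. In pericyte replicates 1 and 2 the mural cell genes summed to 2747.66 and 2039.37 CPM, with the smooth muscle genes acta2 at 1052.48 and 524.88 CPM and MYH11 (ENSDARG00000009782) at 688.66 and 219.49 CPM. Other mural genes were higher in replicate 2, with rgs5b at 264.47 and 426.23 CPM and the TAGLN copies at 156.86 and 316.84 CPM (ENSDARG00000033466) and at 180.27 and 204.02 CPM (ENSDARG00000045408). The part of these differences in the collagen values was not tested.

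**Figure D5:**
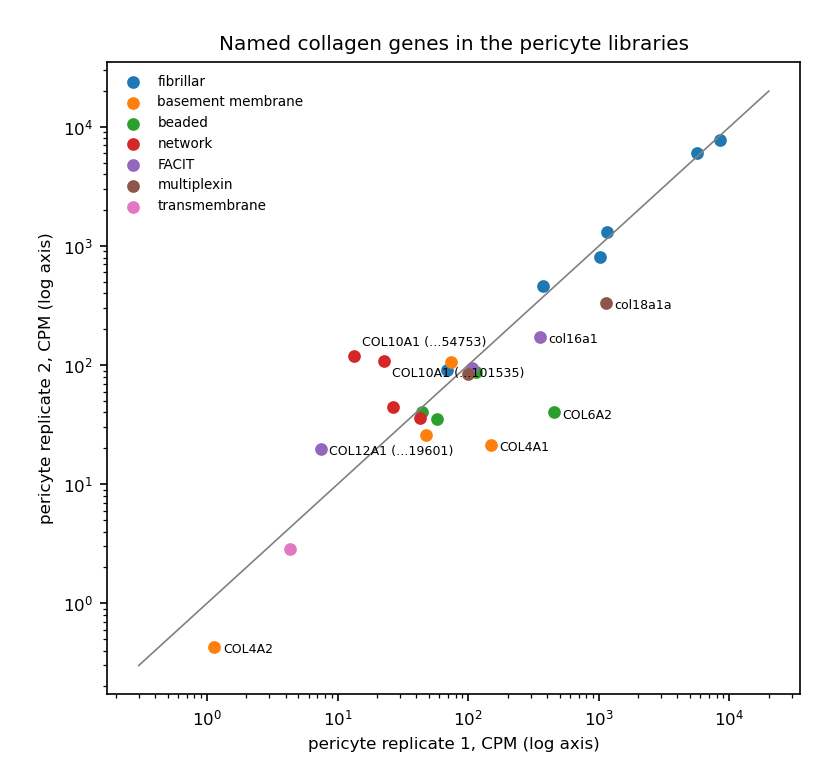
CPM of the 24 named collagen genes in pericyte replicate 1 (horizontal, log axis) and replicate 2 (vertical, log axis), coloured by class; the line marks equal CPM and labels mark genes that differ more than 2-fold. COL6A2 lies farthest below the line, and both COL10A1 copies lie above it.

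Markers of other cells moved with some of these results. The 8 renal tubule genes summed to 292.02 and 487.51 CPM in pericytes, 3.9 and 2.52 CPM in ZKS cells, and 1043.96 and 4.67 CPM in sinusoids, where replicate 1 also had the larger collagen sum. The 15 macrophage genes summed to 3234.65 and 4304.11 CPM in pericytes, 462.98 and 666 CPM in sinusoids and at most 2.11 CPM in ZKS cells. In pericytes cd74a, an antigen presentation gene, held 2432.23 and 3250.92 CPM of that sum, and MFAP4, a symbol on the macrophage list, held 490.7 and 835.28 CPM (ENSDARG00000116066) and 191.97 and 166.23 CPM (ENSDARG00000111491), against at most 3.44 CPM for either copy in the other niche libraries. Which MFAP4 copies mark macrophages was not tested. SPI1, a myeloid factor, was at 57.38 and 28.63 CPM, the scavenger receptor marco at 30.97 and 7.3 CPM, MPEG1 (ENSDARG00000043093) at 18.7 and 10.02 CPM and the macrophage receptor csf1ra at 5.85 and 0 CPM in pericytes. In sinusoids these genes stood at 76.8 and 29.8, 36.57 and 86.63, 145 and 259.02, and 4.34 and 15.15 CPM in that order. Among other MFAP4 copies, ENSDARG00000089667 stood at 2 and 0.43 CPM in pericytes and at 10.92 and 9.24 CPM in sinusoids. Of 11 macrophage genes tested, 3 were called higher and 3 lower in pericytes than in sinusoids (14.4% and 10.9% of all genes). The median log2 change of the 11 was -1.76. MFAP4 copies ENSDARG00000116066 and ENSDARG00000111491 passed the filter only with pericytes. The other MFAP4 copies tested and csf1ra passed only with sinusoids, so these counts are no test. The 4 erythroid genes summed to 157 and 267.74 CPM in pericytes and to 1164.66 and 537.43 CPM in sinusoids. The part of these cells in the collagen values was not tested. The 7 endothelial genes summed to 77.64 and 137.01 CPM in pericytes, and to 81.2 and 72.76 CPM in ZKS cells. In ZKS cells kdrl alone held 78.93 and 70.74 CPM, and 6 of the 7 genes were called lower there than in pericytes (22.0% of all genes), with a median log2 change of -2.22.

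Genes that make, process and bind collagen were read from lists chosen with earlier results of these data known. Of 26 tested genes of collagen folding and modification, 4 were called higher and 3 lower in ZKS cells than in pericytes, shares near or under the 15.2% and 22.0% of all genes. SERPINH1 (ENSDARG00000019949), the collagen chaperone also known as Hsp47, stood at 3502.54 and 5132.08 CPM in pericytes, at 234.64 and 181.67 CPM in ZKS cells and at 68.05 and 234.64 CPM in sinusoids. It was chosen after its values were seen, and was lower in ZKS cells than in pericytes by -4.72 ± 0.67 (limma adjusted p = 0.0028). The other SERPINH1 copy (ENSDARG00000075954) stood at 54.85 and 54.65 CPM in ZKS cells and at 23.41 and 25.49 CPM in pericytes, a log2 change of 0.78 ± 0.45 that did not pass (limma adjusted p = 0.214). P3H3, a collagen prolyl hydroxylase family gene, stood at 25.92 and 27.63 CPM in ZKS cells and at 0.71 and 5.44 CPM in pericytes, a log2 change of 2.76 ± 0.77 (limma adjusted p = 0.03). Its relative P3H1 was higher in ZKS cells than in sinusoids by 4.48 ± 0.41 (limma adjusted p = 0.00051). In that comparison 11 of the 26 folding genes were called higher and 1 lower (13.7% and 17.9% of all genes), and between pericytes and sinusoids 11 were called higher and none lower (14.4% and 10.9%).

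Procollagen processing and fibril regulator genes were mostly lower in ZKS cells than in pericytes. Of 16 tested, 11 were called lower and none higher in ZKS cells than in pericytes (22.0% and 15.2% of all genes), and 11 were called higher and none lower in pericytes than in sinusoids (14.4% and 10.9%). The 16 include tnxba, FMOD (ENSDARG00000044895) and PRELP, which passed the filter only with pericytes, so neither count is a test. DCN, the fibril-binding proteoglycan decorin, which also stands in the stromal list, stood at 3222.08 and 3483.43 CPM in pericytes, at 130.98 and 95.44 CPM in ZKS cells and at 4.94 and 0.49 CPM in sinusoids. Its groups were separate, and its log2 change was -5.25 ± 0.55 for ZKS cells against pericytes (limma adjusted p = 0.00094), 5.04 ± 0.55 for ZKS cells against sinusoids (limma adjusted p = 0.001) and 10.29 ± 0.55 for pericytes against sinusoids (limma adjusted p = 0.00017). PRELP, a related leucine-rich proteoglycan, stood at 322.71 and 303.24 CPM in pericytes, at 0.86 and 0 CPM in ZKS cells and at 1.12 and 0 CPM in sinusoids. It was lower in ZKS cells than in pericytes by -8.05 ± 0.55 (limma adjusted p = 0.00024) and higher in pericytes than in sinusoids by 7.93 ± 0.55 (limma adjusted p = 0.00035). However, PRELP passed the filter only with pericytes, so neither value is a test. SPARC, a collagen-binding matrix protein, was higher in pericytes than in sinusoids by 7.12 ± 0.43 (limma adjusted p = 0.00023). Between ZKS cells and sinusoids 8 of the 16 were called higher and 2 lower (13.7% and 17.9% of all genes), and the 2 were BGN (ENSDARG00000002945), the proteoglycan biglycan, by -4.48 ± 0.71 (limma adjusted p = 0.0043), and TLL1, a procollagen protease, by -3.01 ± 0.56 (limma adjusted p = 0.0081).

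Of 11 tested collagen receptor genes 2 were called higher and 4 lower in ZKS cells than in pericytes (15.2% and 22.0% of all genes), 4 higher and 1 lower than in sinusoids (13.7% and 17.9%), and 2 higher and none lower in pericytes than in sinusoids (14.4% and 10.9%). Several of these shares lie near those of all genes. ITGA10, an integrin alpha subunit that binds collagen, stood at 2821.23 and 2499.72 CPM in ZKS cells, at 5.57 and 15.32 CPM in pericytes and at 0.45 and 5.11 CPM in sinusoids. ZKS cells stood far above the rest, with a log2 change of 7.65 ± 0.79 against pericytes (limma adjusted p = 0.00093) and 9.47 ± 0.79 against sinusoids (limma adjusted p = 0.00039). ITGB1 (ENSDARG00000104484), a copy of the integrin beta subunit that pairs with it, stood at 152.9 and 109.51 CPM in ZKS cells, at 19.84 and 15.03 CPM in pericytes and at 22.36 and 11.39 CPM in sinusoids. It was higher in ZKS cells than in pericytes by 2.48 ± 0.34 (limma adjusted p = 0.0025). The other 3 ITGB1 copies were called lower in ZKS cells than in pericytes. Of these ENSDARG00000071863 stood at 20.73 and 16.9 CPM in ZKS cells and at 49.67 and 53.69 CPM in pericytes, ENSDARG00000022689 at 0.22 and 0.91 against 4.28 and 14.32 CPM, and ENSDARG00000053232 at 0 and 0.4 against 5.57 and 6.01 CPM. DDR1, a receptor tyrosine kinase for collagen, stood at 64.23 and 61.42 CPM in pericytes, at 0.65 and 0.4 CPM in ZKS cells and at 7.03 and 2.15 CPM in sinusoids, and was lower in ZKS cells than in pericytes by -5.61 ± 0.52 (limma adjusted p = 0.00066) and than in sinusoids by -1.84 ± 0.52 (limma adjusted p = 0.036).

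Basement membrane partners of collagen IV, such as laminins and nidogens, were also counted. Of 16 tested, 1 was called higher and 11 lower in ZKS cells than in pericytes (15.2% and 22.0% of all genes) and 12 higher and 1 lower in pericytes than in sinusoids (14.4% and 10.9%). The 16 include LAMA1 and NID1 (ENSDARG00000103129), which passed the filter through pericytes alone, so the counts with pericytes are no test. Between ZKS cells and sinusoids 4 were higher and 3 lower, against 13.7% and 17.9% of all genes, so the lower share was near that of all genes. The 20 listed genes summed to 4980.21 and 5107.17 CPM in pericytes, 778.54 and 732.32 CPM in ZKS cells and 671.59 and 455.4 CPM in sinusoids. Pericytes were highest, and the other groups did not overlap.

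Few collagen genes were listed above 0 in the DP libraries. Of the 57 genes 39 were listed at 0 in all 6 libraries, and 18 were above 0 in at least 1, of which 12 were so in 1 library only. Only 6 genes reached 1 CPM in any DP library. Since the depth is unknown, a listed 0 there sets no upper limit on a gene. COL1A1, col1a1a and COL1A2 were listed at 0 in all 6 libraries, the 4 libraries of cells co-cultured with ZKS cells included.

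COL12A1 (ENSDARG00000078322) was the only collagen gene with enough values for a test in DP cells. It stood at 9 and 0 CPM in uncultured cells, at 35.8 and 0.3 CPM in co-cultured cells and at 1.3 and 25.2 CPM in treated cells. In each group 1 library was high and the other low, so the groups overlapped. With limma no collagen gene was called in any of the 3 DP comparisons, in which 0.00% of 8795 genes were called. At an unadjusted p under 0.05 there were 996 genes for co-cultured against uncultured, 844 for treated against co-cultured and 1183 for treated against uncultured cells. The log2 change of COL12A1 was 1.08 ± 2.43 (limma adjusted p = 0.949), 0.11 ± 2.43 (limma adjusted p = 1) and 1.19 ± 2.43 (limma adjusted p = 0.89) in that order. The SE was larger than each change, so these libraries cannot tell a change of COL12A1 from none.

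Most of the other genes above 0 in DP cells were so in 1 library only. The type XIV gene col14a1b was at 13.2 CPM in uncultured replicate 2 and listed at 0 in the other 5. COL6A2 was at 6.8 CPM in uncultured replicate 1 alone, COL5A2 at 3.5 and COL4A2 at 3.4 CPM in co-cultured replicate 1 alone, and col7a1l (ENSDARG00000069692) at 2.8 CPM in treated replicate 1 alone. COL9A2, a chain of the FACIT IX, was at 0.9 CPM in co-cultured replicate 1 and at 0.7 and 0.4 CPM in treated cells. The type XI gene col11a1b was at 0.6 CPM in both treated libraries and listed at 0 in the other 4. COL5A1, col28a2a and col15a1b were each above 0 in 2 DP libraries, at 0.7 CPM or less. Replicates of a DP group correlated across genes at 0.438 to 0.582, against 0.901 to 0.983 in the niche groups, as a description over genes that are not independent.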

How the data were processed

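Quartz-seq libraries were made from sorted cells by oligo-dT priming, poly-A tailing and PCR, per the labels' protocols. No molecular identifiers were described, so PCR copies are not independent molecules and floors cover counting error only. HISAT2 2.1.0, Subread 1.6.4 and build GRCz11 are named in the submitters' processing notes, with no settings or strand use stated. Per gene and library, CPM were deposited by the authors. In the niche libraries 100% of values were whole multiples of 1 read within 0.1 read, giving 6984492 to 16242092 reads. The step of ZKS replicate 2, 0.101 CPM, was read from all its values, since it lies close to the rounding of low values. The DP values had no readable step.

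Symbols came from a gene name table, and 40 of 47 distinct collagen symbols matched RefSeq, used only for neighbours because its assembly differs. Genes with 1 CPM or more in 2 or more libraries of a set were tested with limma 3.58.1 (R 4.3.3) on log2(TMM-scaled CPM + 1), with 3 groups per fit, two-sided p-values and Benjamini-Hochberg adjustment. edgeR 4.0.16 gave the TMM factors and, with DESeq2 1.42.0, tested the recovered reads as an alternative. Folds against a group at 0 use the higher 3-read floor of its libraries. Named genes were, per class, up to 6 with the highest niche group mean of at least 10 CPM, and all copies of COL1A1, COL1A2, COL4A1, COL4A2 and COL12A1. Of the list genes, up to 3 called genes at each end of each niche comparison were eligible. The symbol rule for members used no measured value, but the rule and the lists were chosen with earlier results of these data known. Columns of other series numbered 0.

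The limma script was tested on simulated counts with changed genes at known folds. At the first spread tried it found most changed niche genes and none of the changed DP genes. A smaller spread, added after that result was seen, gave high recovery in both sets. The spread between niche replicates estimated by edgeR (common dispersion 0.428) was larger than either simulated spread, so the test may miss more than in the simulation, and counts of 0 in DP comparisons do not show that nothing changed.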

Additional observations from a re-analysis of the deposited data

How the results depend on the processing

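Of the collagen genes called, 15 of 27 lower and 1 of 3 higher calls for ZKS cells against pericytes, 6 of 13 higher and 2 of 5 lower calls against sinusoids, and 19 of 30 higher and 0 of 2 lower calls for pericytes against sinusoids held in every alternative that tested them. Both counts for pericytes include COL8A1, COL10A1 (ENSDARG00000101535), col16a1, col28a2b, col6a1 and col15a1b, and the first also col5a2b. These genes passed the filter only with pericytes, so their calls are no test and their holding supports nothing. Holding was counted for collagen genes alone, so no share over all genes stands beside these counts. For ZKS cells against pericytes, collagen genes called higher went from 3 to 1 with edgeR, and leaving out 1 library gave 1 to 2 higher and 16 to 16 lower, and 1832 to 4051 calls over all genes. For ZKS cells against sinusoids, edgeR gave 8 higher, a filter of 10 CPM gave 3 lower, and the 4 libraries alone and DESeq2 gave 8 lower, while leaving out 1 library gave 8 to 11 higher, 2 to 4 lower and 1792 to 4698 over all genes. For pericytes against sinusoids, leaving out 1 library gave 18 to 28 higher, 0 to 1 lower and 1981 to 3847 over all genes; collagen genes called lower numbered 1 with a pseudocount of 0.5, no filter or the replicate block, and 0 with a filter of 10 CPM, the 4 libraries alone, edgeR or DESeq2. Calls over all genes were 3452, 2683, 609, 495 and 793 with all 12 libraries in ZKS cells against pericytes, ZKS cells against sinusoids, co-cultured against uncultured, treated against co-cultured and treated against uncultured DP cells, and 2335 with the 4 libraries alone and 1986 with edgeR in pericytes against sinusoids. The cause of these differences was not tested. The fit with all 12 libraries shares its spread between sets, and with 1 library left out the lone sample is assumed to vary like the other groups.

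Signs turned in values that were not called. Leaving out 1 library gave log2 changes of -2.03 to 1.09 for COL10A1 (ENSDARG00000054753) and -0.58 to 0.78 for COL12A1 (ENSDARG00000019601) in ZKS cells against pericytes. It gave -0.56 to 0.060 for COL1A1, -0.22 to 0.64 for COL2A1 (ENSDARG00000011407) and -0.39 to 0.12 for COL8A1 in ZKS cells against sinusoids, and -1.68 to 1.02 for COL4A1 in pericytes against sinusoids. For COL12A1 (ENSDARG00000078322) it gave -1.29 to 3.45 in co-cultured against uncultured, -2.25 to 2.48 in treated against co-cultured and -0.57 to 2.93 in treated against uncultured DP cells. COL12A1 (ENSDARG00000019601) in ZKS cells against pericytes was -0.10 with edgeR and -0.20 with DESeq2, COL4A1 in pericytes against sinusoids was 0.28 with edgeR and 0.33 with DESeq2, and COL12A1 (ENSDARG00000078322) in treated against co-cultured DP cells was -0.12 with a pseudocount of 5. Same-numbered libraries did not deviate together across genes (correlations of -0.012 to 0.064). This cannot exclude that they shared animals or a sort day, so the pairing is unknown. Collagen calls with the replicate block numbered 3 higher and 28 lower, 12 higher and 5 lower, and 27 higher and 1 lower. In order, these are the 3 niche comparisons, and in DP cells 0 were called. The share of all genes called in that fit is not given here, and genes that passed the filter only with pericytes are included. These counts therefore support nothing by themselves. Some named genes not called in the main results were called in alternatives: for ZKS cells against pericytes COL4A2 with edgeR (adjusted p = 0.0424) and DESeq2 (adjusted p = 0.0109), and for ZKS cells against sinusoids, lower in ZKS cells, COL6A2 in 2, col6a4a in 4 and col6a1 in 5 settings, edgeR among the last 2 genes' settings (adjusted p = 0.0111 and 0.00696). COL10A1 (ENSDARG00000101535) was called higher in ZKS cells than in sinusoids with DESeq2, by a log2 change of 5.33 (adjusted p = 0.0104). Depth limits low genes: 3 reads are 0.185 to 0.43 CPM in a niche library.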
